A study of Homo sapiens with 10 samples.

Results

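Ephrins, semaphorins and the receptors through which axon guidance cues act were followed in human cells with and without overexpressed DAZL, a germ cell RNA-binding protein. The genes were chosen by name from the deposited table of TPM per gene (a transcript abundance scaled for gene length and to the same total in every library), as the ephrins, the Eph receptors, the semaphorins of classes 3 to 7, the plexins, the neuropilins, the SLIT and ROBO genes, the netrins, the UNC5 receptors and DCC. The rule found 71 of the 64940 gene entries, which carry 69 gene symbols, because EPHA1 and EPHB6 each have a second entry that is listed at 0 in every library. No measured value entered the rule. Of these genes, 54 reached an average of 1 TPM across the 4 libraries and were tested among 16687 such genes. The other 15 genes had lower means, and their values were not tested.

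The study sequenced RNA from the human embryonic stem cell line H9 after differentiation. The control group has 2 libraries, titled Normal, whose genotype is given as wt and whose cells are described as spontaneously differentiated (SD) cells derived from hESCs. The oeDAZL group has 2 libraries, whose genotype and treatment are both given as oeDAZL and whose cells are described as hPGCLCs, in vitro counterparts of primordial germ cells (PGCs). The design text calls both groups PGCLCs, and these sources do not settle which induction the control cells had. The study's methods induce PGCLCs with BMP4 and BMP8a and overexpress DAZL from a lentivirus that also encodes GFP. Nothing in the labels says that the libraries of a group came from separate cultures, so each P-value measures only the spread between these libraries, which may be technical.

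The level of DAZL itself was 0 and 0.0333 TPM in control and 102 and 101 TPM in oeDAZL, in the direction of the labels. Read depth cannot be recovered from TPM and is unknown. Between 16342 and 17239 genes per library reached 1 TPM. On the first principal component, control replicate 1 was at -30.1, control replicate 2 at -7.97 and the oeDAZL libraries at 22.4 and 15.7. The control libraries thus lay farther from each other than the oeDAZL libraries did, with control replicate 1 at the far end. The counts, and the members whose size or call rests on control replicate 1, are given with and without it. Of the 10 PGC markers, several were low in both groups. NANOS3 was at 1.39 and 1.66 TPM in control and 1.07 and 0.732 TPM in oeDAZL, SOX17 was between 2.52 and 3.35 TPM and DDX4 was listed at 0 in every library. PRDM1 was between 1.47 and 2.32 TPM, DPPA3 between 0.716 and 2.17 TPM and DND1 between 0.450 and 0.952 TPM. CD38 was at or under 0.160 TPM. Markers shared with other cells were higher, with TFAP2C between 44.3 and 53.9 TPM, PDPN between 32.9 and 58.5 TPM and KIT between 6.23 and 7.70 TPM. The summed level of the 6 amnion and trophoblast markers was between 3051 and 3327 TPM. The higher PGC markers were thus those shared with other cells, so they do not settle the labelled cell type. The groups are called by their labels.

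Axon guidance genes encode cues and the receptors that read them on a growing axon or a migrating cell. Ephrins are bound to the cell surface and signal to Eph receptor tyrosine kinases on neighbouring cells, and the ephrin-bearing cell can receive a signal in return. Semaphorins act through plexins, with neuropilins as coreceptors for most class 3 members. SLIT proteins are secreted and repel cells that carry ROBO receptors, and netrins attract or repel through DCC and UNC5 receptors. Many of these genes are also used outside the nervous system, in vessels, epithelia and mesenchyme and in the migration of germ cells.

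Short sequences are shown for 2 miRNAs because of where their genes or their matches lie among these members. The genes of miR-218 lie within SLIT2 and SLIT3. In hg38 the mature miR-218-5p lies at chr4:20528299-20528319 (plus strand) within SLIT2 and at chr5:168768211-168768231 (minus strand) within SLIT3. The let-7 family is the miRNA family with which the study is concerned. The mature sequences are from RefSeq, written 5′ to 3′, with the seed (bases 2 to 8) in capitals.
miR-218-5p: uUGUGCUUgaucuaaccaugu
let-7a-5p: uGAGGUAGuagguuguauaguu
Matches to the seed followed by A, an 8mer, were searched on the sense strand of the 3′UTR of the canonical transcript in GENCODE 44. The 8mers are AAGCACAA for miR-218-5p and CTACCTCA for let-7a-5p. The matches in ROBO1 (chr3:78597935-78597942, minus strand), ROBO2 (chr3:77646511-77646518, plus strand) and SEMA4C (chr2:96860552-96860559, minus strand) are shown with the 8mer in capitals, because the first pair are receptors for the products of the miR-218 host genes and SEMA4C is the member with a let-7 match that fell.
ROBO1: tttggttttaaAAGCACAAtcactaaactt
ROBO2: tatttggtgatAAGCACAAatctctactcc
SEMA4C: acaggcaccagCTACCTCAgggacatggca
A miR-218 8mer was found in 9 of the 69 genes (13.0%), against 4.49% of 19559 genes with a 3′UTR, and a let-7 8mer in 8 genes (11.6%), against 3.75%. The 3′UTRs of the members were longer, with a median of 1796 bases against 1064 bases over the same genes. A match is a description of the sequence and not evidence that a miRNA acts there, and both miRNAs were chosen after the values of the members had been seen.

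Of the 54 genes tested, 25 (46.3%) were lower in oeDAZL with an unadjusted P-value of at most 0.05, where 15.2% of all tested genes were, and 1 (1.85%) was higher, where 5.02% were. The verbs fell and rose are used below for genes that passed this threshold. It is wider than the rule of the study, which also asks for a fold change of at least 2. The lower genes included SLIT2, NRP1, PLXNB1, ROBO1, 6 of the 8 ephrins and 8 of the 18 semaphorins tested, while none of the 9 Eph receptors tested passed in either direction. SEMA6A was the one gene that rose. None of the 54 had an adjusted p under 0.05 in limma, a threshold that 0.0599% of all tested genes (10 genes) passed. Without control replicate 2, 7 members passed it, where 4.03% of all tested genes did: SLIT2, NRP1, PLXNB1, ROBO1 and SEMA3C were lower and SEMA6A and EPHA2 higher. Most of the falls were moderate: SLIT2 alone fell with a fold change of at least 2 on the log2(TPM + 1) scale, as 0.563% of all tested genes did, and no member rose by as much, as 0.126% did.

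Both oeDAZL libraries were below both control libraries for 35 of the 54 genes, where this held for 38.4% of all tested genes, and above both for 4 genes, where it held for 16.0%. The difference was negative for 45 genes and positive for 9. The median difference on the log2(TPM + 1) scale was -0.26 for the members and -0.08 for all tested genes. Among all tested genes, more were lower than higher, and this depended on the scaling. With median-of-ratios scaling, 9.16% of all tested genes were lower and 9.95% higher at this threshold, and of the members 19 were lower and 2 higher, with a median of -0.18 against 0.00 for all genes. Without control replicate 1, 16 members were lower and 1 higher, against 10.3% and 4.67% of all genes. Without oeDAZL replicate 1, 11 were lower and none higher, against 7.35% and 2.14%. EFNA2, EFNA4, EFNB1, NRP1, PLXNA1, PLXNA3, PLXNB1, ROBO1, SEMA5A, SEMA6D and SLIT2 were lower at P of at most 0.05 under every alternative testing them. How many of all tested genes were lower under every alternative was not counted.

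**Figure D1:**
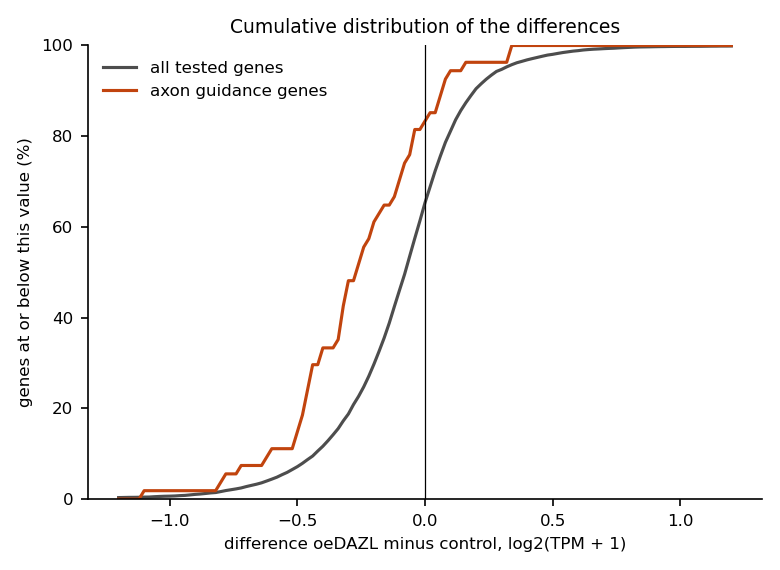
Cumulative share of genes (percent, vertical axis) at or below each difference between oeDAZL and control on the log2(TPM + 1) scale (horizontal axis), for the 54 axon guidance genes tested (orange) and all 16687 tested genes (grey). The orange line lies to the left, with 33.3% of the axon guidance genes at or below -0.4 against 11.6% of all genes.

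In bulk RNA, fewer cells of a type and less RNA per cell cannot be told apart. Markers of mesenchyme, cells that also express many guidance genes, moved with the lower members. Their summed level over 6 genes was 1723 and 1465 TPM in control and 921 and 958 TPM in oeDAZL. For 5 of the 6, both oeDAZL libraries were below both control libraries. This held for 38.4% of all tested genes, a share that also stands beside the marker counts that follow. COL3A1, a fibrillar collagen, was at 583 and 479 TPM in control and 224 and 220 TPM in oeDAZL. PDGFRA, a receptor, was between 11.3 and 14.6 TPM, and TWIST1, a transcription factor, was between 11.0 and 13.3 TPM. The 8 neural markers summed to 220 and 259 TPM in control and 269 and 247 TPM in oeDAZL, mostly from TUBB3. For 6 of the 8, both oeDAZL libraries were below both control libraries. Only 4 of the 8 averaged at least 1 TPM. DCX was between 0.323 and 0.741 TPM, SOX1 and ELAVL3 were at or under 0.304 TPM, and NEUROD1 was near 0. The 4 neural crest markers summed to 12.0 and 6.04 TPM in control and 5.48 and 4.45 TPM in oeDAZL. For 2 of the 4, both oeDAZL libraries were below both control libraries. The 7 endothelial markers summed to 22.9 and 26.9 TPM in control and 19.9 and 20.2 TPM in oeDAZL, with PECAM1 and EMCN listed at 0. Only 1 of the 7 was lower in both oeDAZL libraries, namely KDR. It was at 12.6 and 12.7 TPM in control and 8.39 and 8.23 TPM in oeDAZL. The part of these markers in the results was not tested.

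**Figure D2:**
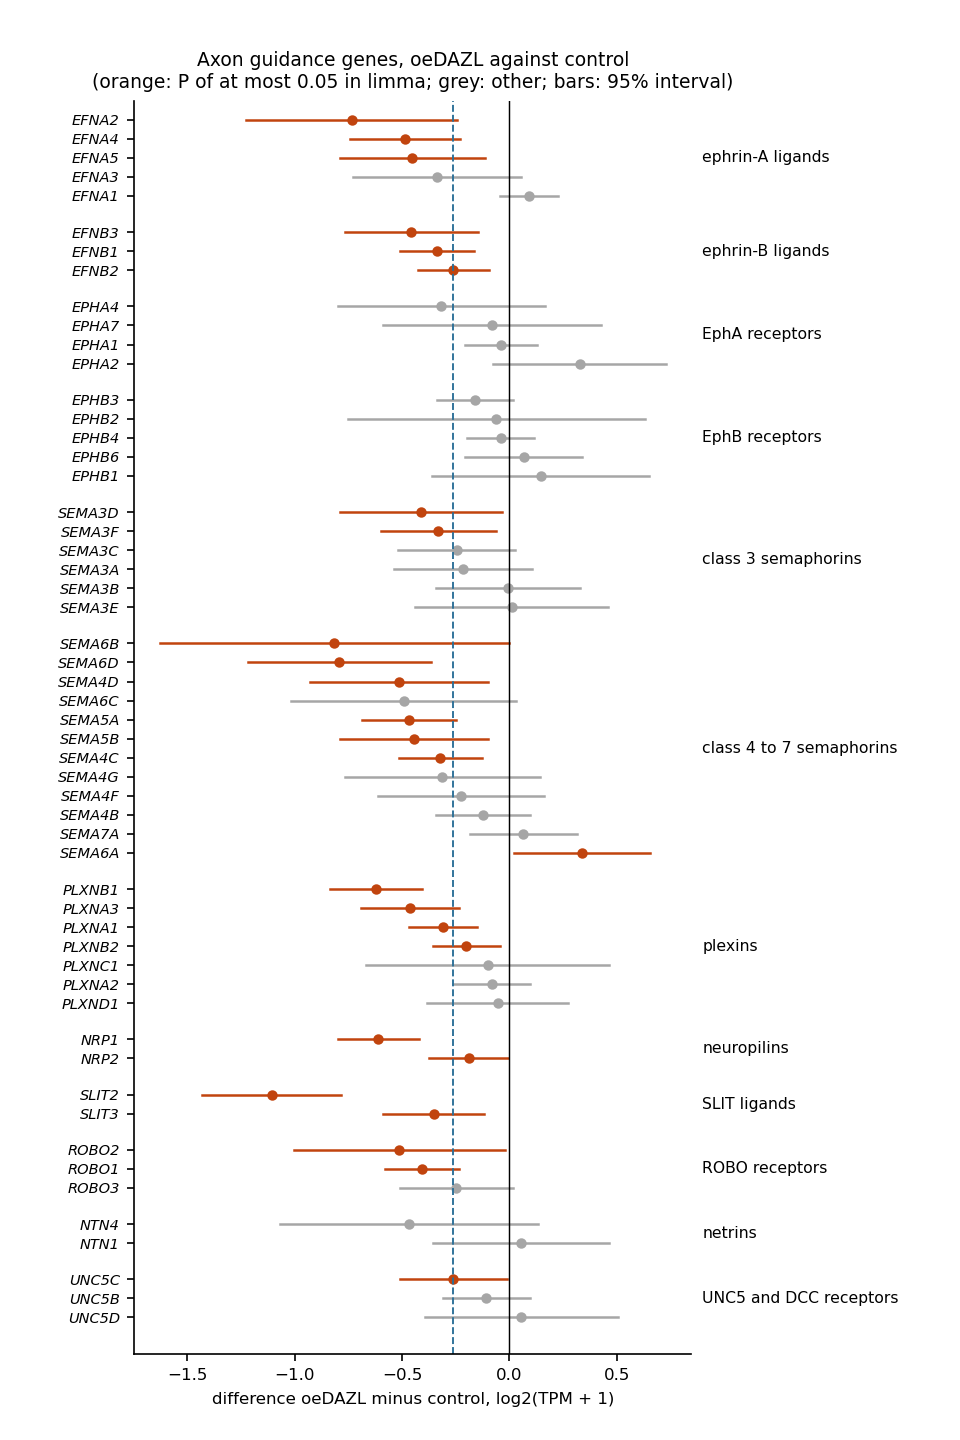
Difference between oeDAZL and control on the log2(TPM + 1) scale for each of the 54 axon guidance genes tested, by family. Points are the limma estimates, bars the 95% interval, orange marks an unadjusted P-value of at most 0.05, and the dashed line is the median of -0.26. SLIT2 lies farthest to the left at -1.11, and SEMA6A is the orange point to the right of 0.

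SLIT2 (ENSG00000145147.20, chr4:20251905-20620561, plus strand) encodes a secreted repellent that binds ROBO receptors. Its level was 30.7 and 23.9 TPM in control and 11.8 and 12.3 TPM in oeDAZL, so that the groups did not overlap and the oeDAZL libraries lay close together. SLIT2 fell by 55.9% in mean TPM, a difference of -1.11 (SE 0.13) on the log2(TPM + 1) scale with a limma adjusted p of 0.0836. Without control replicate 1 the difference was -0.93, under a 2-fold change. SLIT3 (ENSG00000184347.14, chr5:168661740-169301139, minus strand), a second ligand of the family, was at 41.7 and 35.6 TPM in control and 29.1 and 30.8 TPM in oeDAZL and fell by 0.35 on the log2 scale. It was lower by 22.4% in mean TPM, with no overlap, and the call was lost without oeDAZL replicate 1. Of the summed TPM of the SLIT genes, SLIT2 took 42.1% and 40.1% in control and 28.7% and 28.4% in oeDAZL, so that the 2 genes did not fall by the same proportion. SLIT1 was between 0.187 and 0.634 TPM and was not tested.

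ROBO1 (ENSG00000169855.20, chr3:78597239-79767998, minus strand) encodes the most abundant SLIT receptor in these cells. Its level was 74.9 and 68.1 TPM in control and 53.4 and 53.9 TPM in oeDAZL, without overlap, and it fell by 24.9% in mean TPM (difference -0.41, SE 0.07, limma adjusted p = 0.0896). ROBO2, its neighbour on chromosome 3 at chr3:75906695-77649964, was at 2.87 and 2.44 TPM in control and 1.498 and 1.63 TPM in oeDAZL. Its fall of 41.2% passed the threshold here and was lost in 8 of 11 alternatives. ROBO3, a receptor that modulates the response to SLITs in crossing axons, was between 15.0 and 20.03 TPM and did not pass the threshold (limma adjusted p = 0.270). ROBO4, the endothelial receptor of the family, was at or under 0.183 TPM. The summed level of the ROBO genes was 97.8 and 89.1 TPM in control and 72.2 and 70.6 TPM in oeDAZL, and ROBO1 took between 74.0% and 76.6% of it in every library. The sums of ligand and receptor genes were both lower in the oeDAZL libraries, with a ratio of SLIT to ROBO TPM of 0.747 and 0.670 in control and 0.571 and 0.614 in oeDAZL.

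The miR-218 hairpin genes within SLIT2 and SLIT3 cannot be followed in this assay, since MIR218-1 was listed at 0 in every library and MIR218-2 at 0.279 TPM in 1 oeDAZL library and at 0 in the others. Of the 9 members with the miR-218 8mer printed above, ROBO1, ROBO2, PLXNA3 and SEMA6B fell (the calls of ROBO2 and SEMA6B were each lost in 8 of 11 alternatives), EPHA7, EPHB2, PLXNC1 and PLXND1 did not pass the threshold, and EPHA5 was not tested. Their median difference was -0.25, beside -0.26 for all members. Of the 8 members with the let-7 8mer, SEMA4C fell, NTN1, PLXNC1, PLXND1, SEMA4F and SEMA4G did not pass, and EPHA6 and ROBO4 were not tested. The median difference of the 6 tested was -0.16.

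**Figure D3:**
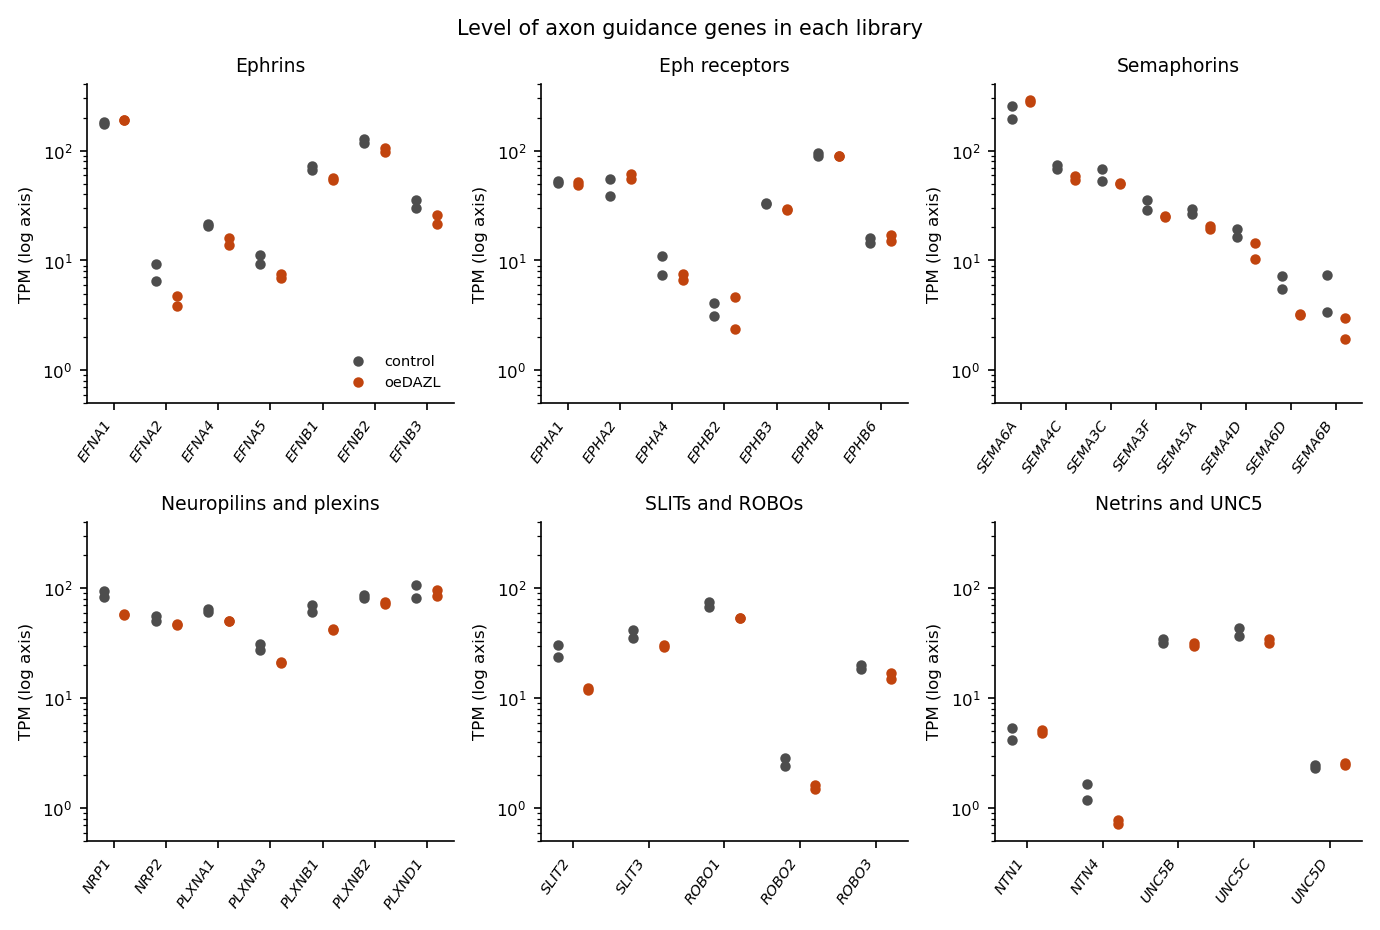
Level of chosen members in each library (TPM, log axis) by family, with control libraries in grey and oeDAZL libraries in orange. SLIT2, NRP1, PLXNB1 and ROBO1 are lower in both oeDAZL libraries, whereas EFNA1, EPHA1, EPHB4 and PLXND1 lie close together or overlap between groups.

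The neuropilins are coreceptors for class 3 semaphorins and also for vascular endothelial growth factors. NRP1 (ENSG00000099250.18, chr10:33177492-33336262, minus strand) was at 94.6 and 83.6 TPM in control and 57.5 and 58.3 TPM in oeDAZL. It fell by 35.0% in mean TPM (difference -0.61, SE 0.08, limma adjusted p = 0.0885), with every oeDAZL value well under every control value, and by 0.52 on the log2 scale without control replicate 1. NRP2 was at 50.8 and 56.5 TPM in control and 46.7 and 47.0 TPM in oeDAZL. Its fall of 12.7% was small and did not hold in 8 of 12 alternatives. The annotation places exons of an antisense transcript over NRP1, and whether the counting used strand is not stated. Genes on the opposite strand also overlap exons of NRP2, SLIT3, ROBO2, EFNB2, EPHB4, PLXNA3, SEMA3F, SEMA5A, SEMA6D and UNC5C, among others.

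Plexins transmit the semaphorin signal into the cell. PLXNB1 (ENSG00000164050.13, chr3:48403854-48430086, minus strand), the receptor for SEMA4D, was at 70.5 and 60.6 TPM in control and 42.4 and 41.9 TPM in oeDAZL. It fell by 35.7% (difference -0.62, SE 0.09, limma adjusted p = 0.0896), a proportion like that of NRP1. PLXNA3 was at 27.6 and 31.3 TPM in control and 21.3 and 20.8 TPM in oeDAZL and fell by 28.5%. PLXNA1, which pairs with neuropilins as PLXNA3 does, was at 64.7 and 61.3 TPM in control and 50.9 and 50.4 TPM in oeDAZL and fell by 19.7%. PLXNB2, also a receptor for class 4 semaphorins, was at 87.3 and 82.6 TPM in control and 75.6 and 71.9 TPM in oeDAZL. Its fall of 13.2% was lost in 5 of 12 alternatives.

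The other plexins did not pass the threshold. PLXNA2 was at 34.2 and 36.0 TPM in control and 33.3 and 32.8 TPM in oeDAZL. PLXND1, the receptor for SEMA3E in vessels, was at 81.8 and 108 TPM in control and 96.2 and 85.3 TPM in oeDAZL, and the control libraries lay on either side of both oeDAZL libraries. Its sign turned with the library left out, being -0.25 without control replicate 1 and 0.14 without control replicate 2. PLXNC1 was between 1.23 and 1.85 TPM. PLXNA4, which was not tested, was at 0.887 and 0.813 TPM in control and 0.525 and 0.573 TPM in oeDAZL, and PLXNB3 was between 0.334 and 0.605 TPM. Over the plexins and neuropilins together, the summed level was 515 and 523 TPM in control and 427 and 411 TPM in oeDAZL. Of the 9 genes tested, 6 were lower, where 15.2% of all tested genes were. The median difference of the 9 was -0.20. Without control replicate 1 it was -0.27, against -0.06 for all tested genes, and without oeDAZL replicate 1 it was -0.28, against -0.07.

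Ephrin-A ligands are held in the membrane by a lipid anchor. EFNA1 (ENSG00000169242.12, chr1:155127876-155134899, plus strand) was the most abundant ephrin, at 183 and 174 TPM in control and 188 and 191 TPM in oeDAZL. The oeDAZL libraries were slightly above the control libraries, and the difference was 0.09 (95% interval -0.04 to 0.22, limma adjusted p = 0.403). With median-of-ratios scaling it was 0.17, which passed the threshold (unadjusted limma P-value of 0.0145). EFNA4, which lies in the same cluster at chr1:155063737-155069553, was at 20.7 and 21.5 TPM in control and 13.7 and 15.9 TPM in oeDAZL and fell by 29.8%. EFNA3, placed between them at chr1:155078837-155087538, was between 4.36 and 6.46 TPM and did not pass the threshold (limma adjusted p = 0.300). A read-through transcript of EFNA4 and EFNA3 shares exons with both and was at or under 0.132 TPM.

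EFNA2 was at 9.32 and 6.44 TPM in control and 4.72 and 3.85 TPM in oeDAZL and fell by 45.6%, the largest proportion among the ephrins. EFNA5, a repellent of retinal axons, was at 11.2 and 9.27 TPM in control and 6.94 and 7.46 TPM in oeDAZL and fell by 29.8%. No control value of either gene was reached by an oeDAZL library. The call of EFNA5 was lost without control replicate 1 or oeDAZL replicate 1.

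Ephrin-B ligands span the membrane and can signal into the cell that carries them, and all 3 fell. EFNB1 was at 73.0 and 67.3 TPM in control and 54.1 and 56.6 TPM in oeDAZL, lower by 21.1%. EFNB2, which marks arterial endothelium, was at 126 and 118 TPM in control and 97.9 and 106 TPM in oeDAZL, lower by 16.7%. EFNB3 was at 35.7 and 29.8 TPM in control and 21.4 and 25.7 TPM in oeDAZL, lower by 28.0%. The groups did not overlap for any of them, and EFNB1 held in every alternative, whereas EFNB2 was lost without oeDAZL replicate 1 and EFNB3 without that library or control replicate 1. The summed level of the ephrins without EFNA1 was 283 and 258 TPM in control and 203 and 220 TPM in oeDAZL, and EFNA1 took 39.3% and 40.3% of all ephrin TPM in control and 48.1% and 46.5% in oeDAZL. The median difference of the 8 ephrins was -0.39. Without control replicate 1 it was -0.30, against -0.06 for all tested genes, and the difference of EFNA1 was 0.13. Without oeDAZL replicate 1 the median was -0.33, against -0.07.

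Eph receptors, the tyrosine kinases that bind ephrins, did not pass the threshold in either direction. Their summed level was 258 and 257 TPM in control and 264 and 255 TPM in oeDAZL, and the median difference of the 9 genes tested was -0.04, which turned to 0.04 with median-of-ratios scaling and without control replicate 1 and to 0.10 with quantile normalization. A call appeared for EPHA2 (higher) and EPHA4 (lower) without control replicate 2, and for EPHB3 (lower) with no filter on TPM. With a crossed replicate block, chosen after seeing the data, 1 of the 9 was higher, against 6.35% of all tested genes. EPHB4, a receptor for EFNB2 that marks venous endothelium, was the most abundant at 96.0 and 88.8 TPM in control and 89.5 and 90.0 TPM in oeDAZL, with a 95% interval of the log2 difference from -0.20 to 0.11. EPHA1 was at 53.0 and 50.4 TPM in control and 51.6 and 48.9 TPM in oeDAZL, with an interval from -0.21 to 0.13. Its exons overlap those of ZYX on the opposite strand. EPHB3 was at 33.2 and 32.5 TPM in control and 29.6 and 29.0 TPM in oeDAZL, without overlap but not past the threshold (limma adjusted p = 0.284).

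EPHA2, a receptor for EFNA1, was at 38.3 and 55.5 TPM in control and 60.7 and 55.7 TPM in oeDAZL. Both oeDAZL libraries were above both control libraries, by little over control replicate 2, and the gene did not pass the threshold (limma adjusted p = 0.324). The difference of 0.33 became 0.07 without control replicate 1 and 0.59 without control replicate 2, so 1 control library set its size. EPHB6, which lacks kinase activity, was between 14.3 and 16.9 TPM, EPHA4 between 6.59 and 11.0 TPM, EPHB2 between 2.36 and 4.68 TPM, EPHA7 between 2.18 and 2.96 TPM and EPHB1 between 1.55 and 2.07 TPM. None of these passed the threshold. EPHA3, which was not tested, was at 0.153 and 0.320 TPM in control and 0.365 and 0.367 TPM in oeDAZL. EPHA6 was between 0.204 and 1.14 TPM, and EPHA5, EPHA8 and EPHA10 were at or under 0.212 TPM. The ratio of summed ephrin TPM to summed Eph receptor TPM was 1.81 and 1.68 in control and 1.48 and 1.61 in oeDAZL, and the difference between the ligands and the receptors was not tested.

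**Figure D4:**
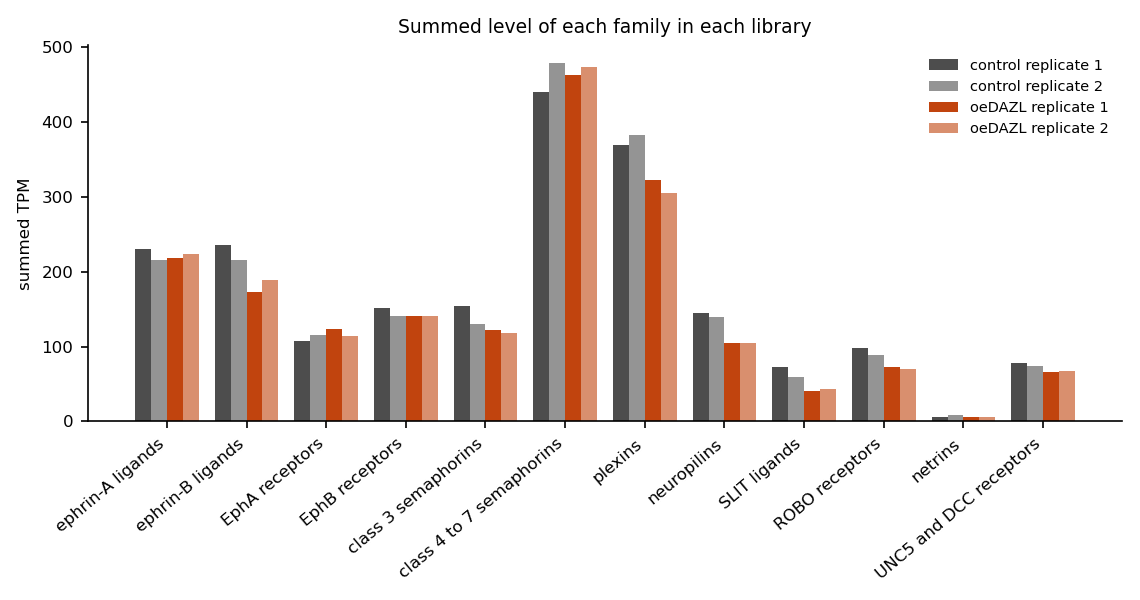
Summed level of each family in each library (TPM, bars from 0), with the control libraries in grey and the oeDAZL libraries in orange. The neuropilins, plexins, ephrin-B ligands, SLIT ligands and ROBO receptors are lower in both oeDAZL libraries, whereas the EphA receptors and the class 4 to 7 semaphorins are not.

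Class 3 semaphorins are secreted. SEMA3F, a ligand that acts through NRP2, was at 35.5 and 29.0 TPM in control and 25.1 and 25.6 TPM in oeDAZL and fell by 21.5%. SEMA3D was at 19.3 and 14.5 TPM in control and 11.5 and 13.2 TPM in oeDAZL and fell by 27.0%. Without control replicate 1 the differences of SEMA3F and SEMA3D went from -0.33 to -0.19 and from -0.41 to -0.22, and neither passed. The call was lost in 4 of 12 alternatives for SEMA3F and in 6 of 12 for SEMA3D. SEMA3C, the most abundant of the class, was at 67.3 and 53.5 TPM in control and 50.0 and 50.9 TPM in oeDAZL, and did not pass the threshold (limma adjusted p = 0.283), with a difference of -0.25 that became -0.08 without control replicate 1. SEMA3A, the classical collapse factor of growth cones, was between 6.16 and 7.70 TPM, SEMA3B between 14.8 and 19.0 TPM and SEMA3E between 6.90 and 10.2 TPM, and none of these passed. SEMA3G was at 0.396 and 0.0972 TPM in control and 0.0821 and 0.0891 TPM in oeDAZL and was not tested. SEMA3C, SEMA3E, SEMA3A and SEMA3D lie in this order on chromosome 7 between 80742538 and 85187056, all on the minus strand.

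The semaphorins of classes 4 to 7 are held at the membrane. SEMA6A (ENSG00000092421.16, chr5:116443555-116574823, minus strand), a ligand of class A plexins, was the most abundant gene of all the families, at 192 and 257 TPM in control and 287 and 276 TPM in oeDAZL. Both oeDAZL libraries were above both control libraries, and it rose by 25.3% in mean TPM (difference 0.34, SE 0.13, limma adjusted p = 0.224). The rise rested largely on control replicate 1, since without it the difference was 0.13. The call was lost in 5 of 12 alternatives, among them no filter on TPM and limma without trend. SEMA6A-AS1, whose exons overlap SEMA6A on the opposite strand, was at 58.5 and 85.4 TPM in control and 94.9 and 78.6 TPM in oeDAZL, and reads of the pair cannot be told apart if strand was not used.

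The other class 6 members had lower values in oeDAZL. SEMA6D was at 7.19 and 5.53 TPM in control and 3.18 and 3.27 TPM in oeDAZL and fell by 49.3%, with a difference of -0.63 when control replicate 1 was left out. SEMA6B was at 7.30 and 3.39 TPM in control and 1.93 and 3.02 TPM in oeDAZL. Its mean was lower by 53.7%, but control replicate 1 set much of this and the difference of -0.82 became -0.36 without that library. The call was lost in 8 of 11 alternatives. SEMA6C was at 9.08 and 5.72 TPM in control and 4.62 and 5.09 TPM in oeDAZL, and did not pass the threshold (limma adjusted p = 0.270), with a difference of -0.49 that became -0.20 without control replicate 1.

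The class 5 semaphorins carry thrombospondin repeats, and both fell. SEMA5A was at 29.4 and 26.7 TPM in control and 19.5 and 20.5 TPM in oeDAZL and fell by 28.7%. SEMA5B was at 20.1 and 18.5 TPM in control and 12.2 and 16.0 TPM in oeDAZL and fell by 27.3%. The control libraries were close for each, and SEMA5A held under every alternative whereas SEMA5B was lost without control replicate 1 or oeDAZL replicate 1.

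In class 4, SEMA4C, a ligand of PLXNB2, was at 74.7 and 67.7 TPM in control and 54.3 and 59.3 TPM in oeDAZL and fell by 20.3%. SEMA4D, the ligand of PLXNB1, was at 19.3 and 16.4 TPM in control and 10.3 and 14.3 TPM in oeDAZL and fell by 31.0%. The call of SEMA4D was lost in 4 of 12 alternatives, with a difference of -0.51 that became -0.29 without oeDAZL replicate 1, and that of SEMA4C was lost without the same library. SEMA4B was at 40.5 and 37.0 TPM in control and 33.5 and 37.6 TPM in oeDAZL, and these overlap. SEMA4F was between 4.40 and 6.12 TPM and SEMA4G between 6.67 and 11.3 TPM, and neither passed. SEMA4A, which was not tested, was at 0.722 and 1.01 TPM in control and 0.448 and 0.570 TPM in oeDAZL. SEMA7A, the lipid-anchored member that binds integrins and PLXNC1, was at 21.7 and 25.3 TPM in control and 23.8 and 25.4 TPM in oeDAZL.

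Because SEMA6A is so abundant, the summed level of the semaphorins hardly differed, at 594 and 609 TPM in control and 585 and 591 TPM in oeDAZL. Without SEMA6A the sum was 401 and 352 TPM in control and 297 and 316 TPM in oeDAZL. The ratio of semaphorin TPM to plexin and neuropilin TPM was 1.15 and 1.16 in control and 1.37 and 1.44 in oeDAZL. SEMA6A took 32.4% and 42.2% of the semaphorin TPM in control and 49.2% and 46.6% in oeDAZL. The median difference of the 18 semaphorins tested was -0.32, beside -0.08 for all tested genes. Without control replicate 1 it was -0.20, against -0.06 for all tested genes. Without oeDAZL replicate 1 it was -0.26, against -0.07.

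Netrins were at low levels, and neither of the 2 tested passed the threshold. NTN1, the attractant of commissural axons, was between 4.19 and 5.40 TPM. NTN4 was at 1.19 and 1.66 TPM in control and 0.713 and 0.779 TPM in oeDAZL, without overlap (limma adjusted p = 0.343). NTN3 was at 0.276 and 0.376 TPM in control and 0.187 and 0.226 TPM in oeDAZL, and NTN5 at 0.777 and 0.892 TPM in control and 0.467 and 0.354 TPM in oeDAZL, and neither was tested. Both oeDAZL libraries were below both control libraries for 3 of the 4 netrins, where this held for 38.4% of all tested genes. All 3 were at low levels, and only NTN4 of them was tested. DCC, the attractive netrin receptor, was between 0.247 and 0.278 TPM in every library.

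UNC5 receptors mediate repulsion by netrins. UNC5C was at 43.3 and 36.6 TPM in control and 31.7 and 34.5 TPM in oeDAZL and fell by 17.2%, a call that was lost in 8 of 12 alternatives. Its difference of -0.26 became -0.14 without control replicate 1. UNC5B was at 32.0 and 34.6 TPM in control and 31.9 and 29.7 TPM in oeDAZL, and did not pass the threshold (limma adjusted p = 0.498). UNC5D was between 2.32 and 2.60 TPM, and UNC5A was at or under 0.0638 TPM. With DCC near 0, UNC5B and UNC5C made up most of the netrin receptor transcripts of this rule, whose sum was 78.1 and 73.7 TPM in control and 66.3 and 67.0 TPM in oeDAZL.

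Genes that work with these families but are not members were taken from a fixed list of 65, of which 58 were tested. Of these, 12 (20.7%) were lower and 5 (8.62%) higher, against the 15.2% and 5.02% of all tested genes given above, and their median difference was -0.06. With median-of-ratios scaling 7 were lower and 9 higher, against 9.16% and 9.95% of all tested genes. Among the genes at the cell surface, FLRT2, a ligand of UNC5 receptors, fell from 24.1 and 19.97 TPM to 10.9 and 13.7 TPM. NEO1, a receptor for netrins and RGM proteins, fell from 42.1 and 34.7 TPM to 28.2 and 29.3 TPM. GPC1, a heparan sulfate proteoglycan, fell from 93.5 and 93.6 TPM to 67.7 and 72.9 TPM. The groups did not overlap for any of the 3.

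Inside the cell, DPYSL5 and DPYSL3 fell and DPYSL2 rose, all of them collapsin response mediators that act downstream of semaphorins. DPYSL5 was at 7.09 and 5.16 TPM in control and 3.55 and 2.66 TPM in oeDAZL. DPYSL3 was at 269 and 248 TPM in control and 196 and 207 TPM in oeDAZL, whereas DPYSL2 was at 38.2 and 51.2 TPM in control and 60.4 and 56.8 TPM in oeDAZL. SRGAP3, a GTPase-activating protein bound by ROBO receptors, fell by 37.3% in mean TPM. EVL fell by 27.6%, MICAL3 by 18.7%, ARHGEF11 by 15.6%, ERBB2 by 14.2%, LIMK1 by 13.4% and ABL1 by 13.2%. ABL1 passed narrowly, with an unadjusted limma P-value of 0.04996. None of the 58 genes tested from the list had a limma adjusted p under 0.05, as 0.0599% of all tested genes did. The other higher genes were the kinases FYN and PTK2, the exchange factor VAV2 and the actin regulator VASP. FYN rose by 27.2%, VAV2 by 16.5% and VASP by 10.03%. PTK2 was at 119 and 117 TPM in control and 142 and 139 TPM in oeDAZL, with the libraries of each group close together. The GTPases RHOA, between 644 and 687 TPM, RAC1, between 264 and 278 TPM, and CDC42, between 245 and 368 TPM, did not pass the threshold.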

How the data were processed

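The RNA-seq data comprise 2 control and 2 oeDAZL libraries of H9-derived cells, and the miRNA sequencing of the series was not analysed here. The authors deposited TPM per gene, 1 column per library. According to their methods, with versions from the submission notes, reads were trimmed (Trim Galore 0.6.4; the methods name an earlier version), mapped to hg38 with HISAT2 2.1.0, kept where unique and quantified with StringTie 2.1.4. The annotation release and the use of strand are not given in the sources used here. TPM is scaled to a fixed total in each library and retains no depth, so no counting error or lower limit can be given, and a gene can be lower because others are higher.

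Of 65003 entries, 45 chromosome Y copies and 18 repeated identifiers were left out. Values were transformed to log2(TPM + 1), which understates the change of low genes. Genes averaging at least 1 TPM entered a limma 3.58.1 model (R 4.3.3, lmFit, eBayes with trend, no covariate), with Benjamini-Hochberg adjustment over all 16687 tested genes. A fold change of at least 2 with an unadjusted P-value of at most 0.05 is the rule of the study, which applied it to counts. The same P-value without a fold change was added here. An exact permutation test of 2 against 2 libraries cannot give a two-sided p under 0.333.

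The members, the gene lists and the tests were chosen with earlier results of these data known. Values in every library are given for members with P of at most 0.05, a mean TPM of at least 20, or a fold change of at least 1.5 without overlap. Other members are given by range. Genes that are no members come from the list of pathway genes and the lists of markers, whose sums are given for mesenchyme, neural, neural crest, endothelial, and amnion and trophoblast. The pluripotency markers summed to 540 and 486 TPM in control and 483 and 466 TPM in oeDAZL, mostly from LIN28A, whereas POU5F1 was at 13.6 and 10.6 TPM in control and 22.4 and 20.4 TPM in oeDAZL, and the 10 PGC markers to 104 and 113 TPM and to 117 and 116 TPM. Positions and 3′UTRs are from GENCODE 44 on hg38 and mature miRNAs from RefSeq.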

Additional observations from a re-analysis of the deposited data

How the results depend on the processing

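Alternatives were a pseudocount of 0.1, no filter, a mean TPM of at least 5, median-of-ratios and quantile scaling, TPM without mitochondrial genes, limma without trend, the replicate block and each library left out. The count of lower members was 25 and lay between 19 and 25 under the alternatives that kept all libraries. It was smaller without control replicate 1 and without oeDAZL replicate 1, as given above with the shares of all genes. The replicate block gave 21 lower and 1 higher, against 12.6% and 4.02% of all genes. Under the alternatives that kept all libraries, between 9.04% and 16.9% of all genes were lower and between 3.26% and 9.95% higher. A crossed replicate block gave 27 lower and 2 higher, against 17.7% and 6.35% of all genes. It was chosen after seeing the data, because the deviations of same-numbered libraries had a correlation of -0.10. With it, 16 members (29.6%, against 6.53% of all genes) had a limma adjusted p under 0.05. The count of higher members was 0 without a filter and without trend and 2 with median-of-ratios scaling. Members lower by at least 2-fold numbered 2 with a pseudocount of 0.1, against 1.60% of all genes. Without control replicate 1, the difference of SLIT2 was -0.93. The median of the members was -0.18 after median-of-ratios scaling, -0.19 after quantile scaling and between -0.34 and -0.20 with a library left out. Pathway genes outside the families numbered 7 lower and 9 higher with median-of-ratios scaling, 2 higher without trend, and 6 to 17 lower and 1 to 10 higher with a library left out. The sign turned under at least 1 alternative for 11 of the 54 members tested, none of which passed the threshold in the comparison reported, and 5 turned with each of median-of-ratios and quantile scaling. Of those whose values are given in every library, 4 turned. Turns among all tested genes were not counted. After median-of-ratios scaling EPHA1 was at 0.042, EPHB4 at 0.042 and PLXND1 at 0.030. After quantile scaling EPHA1 was at 0.00096. With a library left out, EPHB4 ranged from -0.097 to 0.015, PLXND1 from -0.25 to 0.14 and SEMA7A from -0.043 to 0.17. The cause was not tested. With 1 library left in a group, that library is assumed to vary like the others. Without counts, read depth could not be weighed.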
